A study of Mus musculus with 8 samples.

Results

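Peaks of acetylated histone H3 (H3ac) at 3 genes of the nuclear factor kappa B pathway are described here for the RAW 264.7 line of mouse macrophage-like cells. The genes are Nfkb1, which encodes a subunit of the factor, Nfkbia, which encodes its inhibitor I kappa B alpha, and Tnfaip3, which encodes A20, an enzyme that removes ubiquitin from upstream signalling proteins. Members were all peaks that overlapped 1 of 3 windows on mouse build GRCm39. The windows ran on chromosome 3 from 135285000 to 135405000 for Nfkb1, on chromosome 12 from 55525000 to 55550000 for Nfkbia and on chromosome 10 from 18865000 to 18905000 for Tnfaip3. They held 58 of the 193863 peaks on chromosomes, which merged across libraries into 20 of 81544 regions. Regions are numbered within each window by position, from 1 to 7 for Nfkb1 and Nfkbia and from 1 to 6 for Tnfaip3.

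The study exposed cells for 48 h to extracts of Gel or of CuNZ@Gel, a hydrogel for diabetic wounds that carries a nanozyme according to the series title. The question is whether H3ac peaks change with the nanozyme present. Each treatment had 2 immunoprecipitated libraries of this 1 cell line. Untreated cells are not among the samples used here. The protocol names extracts of CuNZ@Gel alone, and Gel cells are assigned by their own treatment entry. Whether the libraries of a group are separate cultures is not said, and p-values measure the spread between these libraries, which may be technical.

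In resting macrophages I kappa B alpha holds the factor in the cytoplasm. Signals from Toll-like receptors or tumour necrosis factor lead to its destruction, and the factor then enters the nucleus and activates inflammatory genes. Nfkbia, Tnfaip3 and Nfkb1 are themselves textbook targets of the factor, and the first and second form negative feedback loops. Histone H3 acetylation marks active promoters and enhancers.

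The start regions of both inhibitor genes are shown because the factor binds DNA through the kappa B consensus. They run from 250 bases before to 50 bases after the start site and come from RefSeq on build GRCm38.p6, minus strand, chr12:55492598-55492897 for Nfkbia and chr10:19015361-19015660 for the first of 2 start sites of Tnfaip3 in the table. The table matched 2 of the 3 genes by symbol. Capitals mark matches to the kappa B consensus on either strand.
Nfkbia: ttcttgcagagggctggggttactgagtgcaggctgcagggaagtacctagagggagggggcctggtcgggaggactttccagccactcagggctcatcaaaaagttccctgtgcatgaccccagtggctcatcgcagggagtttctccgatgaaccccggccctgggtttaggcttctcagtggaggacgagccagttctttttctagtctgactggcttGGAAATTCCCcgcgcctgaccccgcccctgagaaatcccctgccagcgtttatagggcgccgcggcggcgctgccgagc
Tnfaip3: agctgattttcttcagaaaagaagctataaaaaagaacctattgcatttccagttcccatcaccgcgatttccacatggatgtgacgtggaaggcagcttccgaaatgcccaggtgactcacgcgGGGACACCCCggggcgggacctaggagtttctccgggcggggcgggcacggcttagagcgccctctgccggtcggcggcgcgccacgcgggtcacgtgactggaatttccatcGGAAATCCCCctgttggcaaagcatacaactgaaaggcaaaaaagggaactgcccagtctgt
Nfkbia held 1 match, GGAAATTCCC, from 29 to 20 bases before the start site. Tnfaip3 held 2 matches, GGGACACCCC from 125 to 116 bases before the start site, which reads as a match on both strands, and GGAAATCCCC from 12 to 3 bases before it. The other start region of Tnfaip3 held 0 matches. Of the 32851 start regions in the table, 8.46% held at least 1 match and 1.22% held 2 or more. A match is a stretch of letters and was not tested as a binding site. The peaks are on GRCm39 and positions were not converted, so these stretches, gene starts, exons and introns were not placed within the peaks. For the same reason macrophage markers and other genes of the pathway were not looked up.

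Depth differed between the groups. The files hold no read totals, so the commonest local background of a list, in fragments, served as the measure of depth, and it was 4.62 and 4.28 under Gel and 3.45 and 2.46 under CuNZ@Gel. Paired values are given here and below for replicate 1 first and replicate 2 second. Over all chromosomes, peaks covered 56.6% as much length in CuNZ@Gel as in Gel. Library background in CuNZ@Gel was 66.3% of Gel, and how much of the shorter length goes with depth was not tested. Even where acetylation differs, less acetylation per cell and fewer acetylated cells cannot be told apart in such bulk libraries. Fold below is the authors' enrichment at a peak's summit over local background, with 1 fragment added to each before division. At equal enrichment a shallower library thus gets a lower fold, and fold differences between the groups carry this effect. Height is the number of fragments at the summit, solved from fold and p, divided by the library background, which puts libraries of unequal depth on 1 scale. Heights of shallower libraries rest on fewer fragments, and whether this scaling removes the whole effect of depth was not tested.

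H3ac peaks covered less of each of the 3 windows in CuNZ@Gel than in Gel, without correction for depth. In the Nfkb1 window, peaks covered 5847 and 5902 bp under Gel against 2952 and 3171 bp under CuNZ@Gel. The means were 5874 ± 38.9 bp under Gel against 3062 ± 155 bp under CuNZ@Gel (SD, n = 2), or 52.1% of Gel. In the Nfkbia window the widths were 6082 and 5689 bp against 3328 and 3394 bp. The means were 5886 ± 278 and 3361 ± 46.7 bp (SD, n = 2), or 57.1% of Gel. These shares lay near the 56.6% of all chromosomes. In the Tnfaip3 window, 2277 and 2356 bp were covered in Gel against 1883 and 1241 bp in CuNZ@Gel, or 67.4% of Gel. The Tnfaip3 means were 2316 ± 55.9 and 1562 ± 454 bp (SD, n = 2), and CuNZ@Gel replicate 1 lay closer to the Gel libraries than to its own replicate. In every window both CuNZ@Gel libraries lay below both Gel libraries. Each of the 3 comparisons had an exact permutation p of 0.3333 (two-sided), also after adjustment, which is the smallest that 2 against 2 libraries can give.

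**Figure D1:**
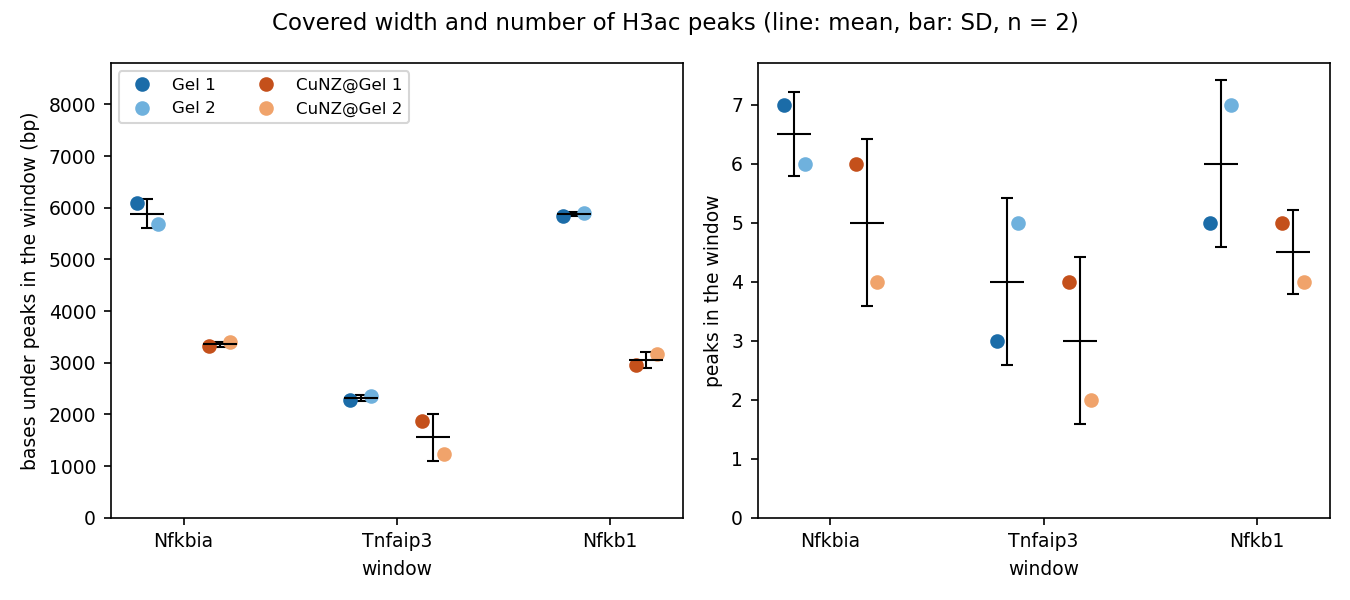
Bases under H3ac peaks (left, bp) and number of peaks (right) in each of the 3 windows, with 1 point per library, a line at the group mean and a bar of 1 SD (n = 2). Covered width separates Gel from CuNZ@Gel in every window, while peak numbers overlap or touch.

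The number of peaks separated the groups less than their width did. The Nfkb1 window held 5 and 7 peaks in Gel and 5 and 4 in CuNZ@Gel. The Nfkbia window held 7 and 6 against 6 and 4, and the Tnfaip3 window 3 and 5 against 4 and 2. The groups overlapped or touched in all 3 windows, with an exact two-sided permutation p of 0.6667 for each. Some regions that were 1 peak in Gel were several shorter peaks in CuNZ@Gel.

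**Figure D2:**
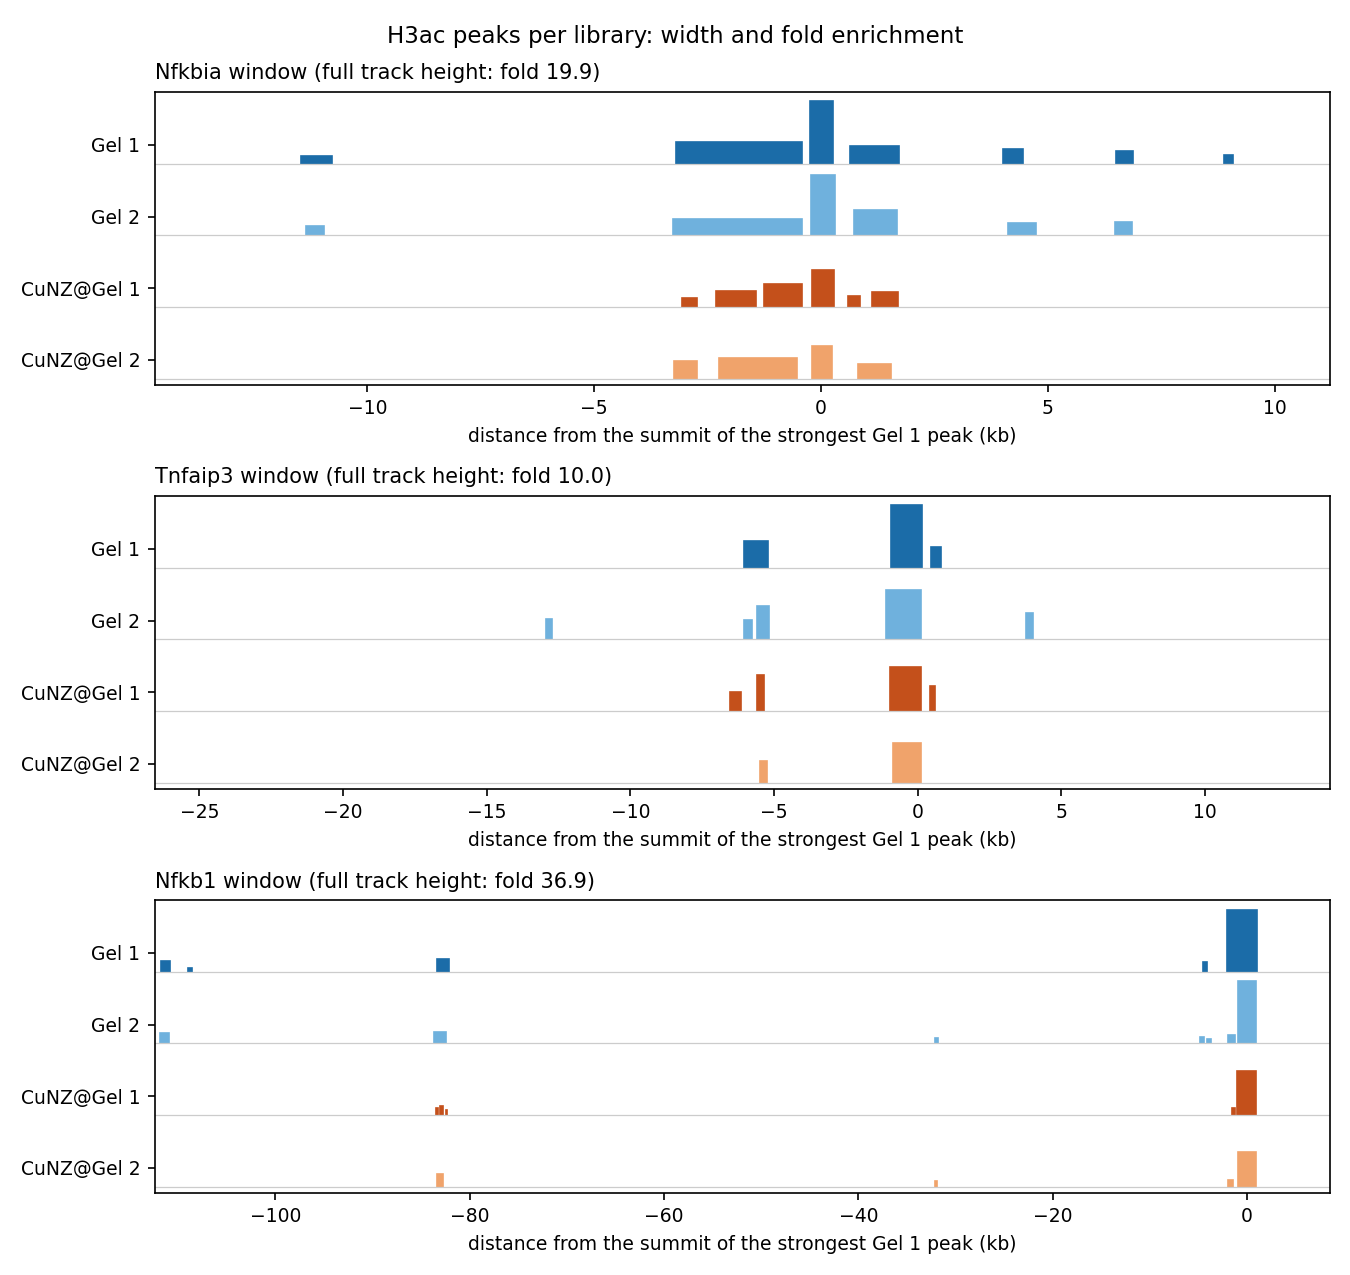
Peaks of each library in the 3 windows, drawn to scale along the distance from the strongest Gel replicate 1 summit (x axis, kb), with bar height in proportion to fold within each window. The strongest region is at 0 in every library, and most weak outer peaks of the Gel tracks have no counterpart in the CuNZ@Gel tracks.

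Of the 20 regions, 7 had a peak in all 4 libraries, 5 had peaks in both Gel libraries and in neither CuNZ@Gel library, and 2 had a peak in 1 library of each group. A further 5 were seen in a single Gel library and 1 in a single CuNZ@Gel library. None had peaks in both CuNZ@Gel libraries without both Gel libraries. Both Gel libraries had peaks in 12 regions. Of these 12, 5 lacked a CuNZ@Gel peak, where the share over all such regions of the genome was 24.9%, and 7 had peaks in both CuNZ@Gel libraries, where it was 55.7%. By gene, the regions without a CuNZ@Gel peak were 2 of 4 at Nfkb1, 3 of 6 at Nfkbia and 0 of 2 at Tnfaip3.

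The strongest H3ac region of the 3 genes was Nfkb1 region 7, on chromosome 3 from 135394778 to 135397762. Its fold was 36.69 and 36.90 under Gel against 26.09 and 20.54 under CuNZ@Gel. The summit held 205 and 194 fragments against 115 and 70, with exact 95% Poisson intervals of 178 to 235, 168 to 223, 94.9 to 138 and 54.6 to 88.4, which cover counting error only. As heights these were 44.4 and 45.3 against 33.4 and 28.5 times the library background, with means of 44.9 ± 0.612 and 30.9 ± 3.45 (SD, n = 2). In height both CuNZ@Gel libraries lay below both Gel libraries, while the intervals are in fragments and carry the difference of depth. Divided by library background, the interval of CuNZ@Gel replicate 1 overlaps both Gel intervals at its upper end, and that of CuNZ@Gel replicate 2 lies below them. The 4 summits fell within 87 bp of each other, at 135396792, 135396802, 135396879 and 135396867 in the same order.

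At Nfkb1 region 7 most of the difference in covered width lay in the lower flank, away from the summit. Peaks covered 2985 and 2670 bp of the region in Gel and 2274 and 2321 bp in CuNZ@Gel. In Gel replicate 1 this was a single peak, whereas the other 3 libraries split it into a main peak and a smaller one before it. The main peak was 1895 bp wide in Gel replicate 2 and 1942 and 1855 bp wide in CuNZ@Gel replicates 1 and 2. In 4 kb bins, the bin from 135396001 to 135400000 had 1762 and 1713 bp under peaks in Gel and 1671 bp in both CuNZ@Gel libraries. The neighbouring bin from 135392001 to 135396000, which holds the flank, the first bases of the main peak and most of 2 further regions, had 1658 and 1683 bp under Gel against 603 and 650 bp under CuNZ@Gel. The difference was -66.5 ± 122 bp in the first bin and -1044 ± 114 bp in the second (CuNZ@Gel minus Gel ± SE, limma, adjusted p = 0.675 and 0.0757). The second difference does not measure the flank alone, as it includes regions 5 and 6, which had no CuNZ@Gel peak. Gel peaks covered 435 and 460 bp of region 5 and, in replicate 2 only, 341 bp of region 6. Region 7 itself differed by less, with a mean width of 2828 ± 223 bp for Gel and 2298 ± 33.2 bp for CuNZ@Gel (SD, n = 2).

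The 2 Nfkb1 regions without a CuNZ@Gel peak differed in strength. Region 1, from 135284919 to 135285909, lay 112 kb from the strongest summit and reached beyond the window's edge. Its fold was 6.10 and 6.24 and its height 8.23 and 7.47 in Gel replicates 1 and 2, with 38 and 32 summit fragments. The weakest summits called at library background in CuNZ@Gel replicates 1 and 2 had heights of 3.19 and 3.66. The Gel heights of Nfkb1 region 1 lay above both, as did those of Nfkb1 region 5 and of Nfkbia regions 5 and 6. At Nfkbia region 1 the height in Gel replicate 2 lay between these values. Each value is the single lowest of its list. The height needed for a call at each of these regions was not determined. Local background exceeded library background at Nfkb1 region 1 and Nfkbia region 1 in Gel replicate 1, and at Nfkb1 region 5 in Gel replicate 2. Manba is a protein-coding neighbour of Nfkb1, and which gene Nfkb1 region 1 belongs to was not determined. Nfkb1 region 5, from 135391926 to 135392665, had a fold of 5.52 and 3.80 in Gel and lay 4.46 kb from the strongest summit.

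Nfkb1 region 3, from 135313157 to 135314680, had peaks in all 4 libraries and was narrower in CuNZ@Gel, with overlapping heights. It was covered over 1238 and 1244 bp under Gel against 678 and 645 bp under CuNZ@Gel. CuNZ@Gel replicate 1 split it into 3 peaks. The heights were 8.88 and 10.3 in Gel and 7.25 and 9.77 in CuNZ@Gel, which overlap. Region 4, from 135364644 to 135365003, had a weak peak in Gel replicate 2 and in CuNZ@Gel replicate 2, with a fold of 3.13 and 3.18. Regions 2 and 6 were seen in 1 Gel library each, with a fold of 2.35 and 2.65.

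Nfkbia carried 3 adjoining regions with peaks in all 4 libraries, a broad one, a narrow strong one and another of middle width. The narrow one, region 3 on chromosome 12 from 55538850 to 55539399, was the strongest. Its fold was 19.95 and 19.30 under Gel against 11.92 and 10.45 under CuNZ@Gel. It held 111 and 101 summit fragments in Gel (exact 95% Poisson intervals 91.3 to 134 and 82.3 to 123) and 52 and 36 in CuNZ@Gel (38.8 to 68.2 and 25.2 to 49.8). Scaled to library background the heights were 24.1 and 23.6 against 15.1 and 14.7, with means of 23.8 ± 0.337 and 14.9 ± 0.307 (SD, n = 2). The heights of the groups did not overlap. Each SD rests on 2 libraries, and the Poisson intervals are far wider in proportion. Divided by library background in the same way, the intervals of Gel and CuNZ@Gel overlap at their ends. The width of region 3 was 508 and 536 bp against 473 and 444 bp, and its 4 summits lay within 120 bp.

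The broad Nfkbia region 2, from 55535824 to 55538666, had the opposite order of heights. It was a single peak of 2769 and 2841 bp in Gel replicates 1 and 2. In CuNZ@Gel it was split into 3 peaks covering 2028 bp in replicate 1 and 2 peaks covering 2219 bp in replicate 2. Its heights were 8.234 and 7.003 under Gel and 8.993 and 8.954 under CuNZ@Gel, so both CuNZ@Gel libraries lay above both Gel libraries. The summit fragments were 38 and 30 against 31 and 22 before scaling, and their Poisson intervals overlap. Its summit moved by up to 2256 bp between libraries, so these heights were read at different places along the region. Height also varied along it, from 4.352 to 8.993 over the 3 peaks of CuNZ@Gel replicate 1. The bare stretch between regions 2 and 3 measured 183 and 199 bp under Gel against 236 and 338 bp under CuNZ@Gel.

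Nfkbia region 4, from 55539688 to 55540809, lay on the other side of the narrow peak. Its widths were 1090 and 945 bp under Gel against 827 and 731 bp under CuNZ@Gel. The fold was 5.52 and 7.95 in Gel and 4.79 and 4.52 in CuNZ@Gel, with summits within 46 bp. Heights of 6.50 and 9.57 stood against 6.09 and 6.11, so the Gel libraries differed more from each other than the lower one differed from CuNZ@Gel.

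The outer peaks of the Nfkbia window were confined to the Gel lists. Regions 1, 5 and 6 had peaks in both Gel libraries, with a fold of 2.44 and 3.03, of 4.81 and 3.78 and of 3.92 and 4.35. They lay 11.2, 4.24 and 6.78 kb from the strongest summit. Both summits of region 6 fell within 2 bp of each other. Region 7 was seen in Gel replicate 1 alone, with a fold of 2.67.

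Tnfaip3 had lower H3ac than the other 2 genes in fold at its strongest region. That was region 4, on chromosome 10 from 18889870 to 18891112, with a fold of 9.97 and 7.95 under Gel against 6.97 and 6.36 under CuNZ@Gel. It held 55 and 41 summit fragments against 30 and 21. The heights were 11.9 and 9.57 against 8.70 and 8.55, with means of 10.7 ± 1.66 and 8.62 ± 0.110 (SD, n = 2). The groups did not overlap, but the Gel libraries lay further apart than the lower of them lay from CuNZ@Gel. Its width overlapped between the groups, with 1079 and 1209 bp under Gel against 1111 and 965 bp under CuNZ@Gel.

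Tnfaip3 region 3, from 18884896 to 18885792, was the shared region whose width differed most in proportion. It was covered over 847 and 719 bp under Gel against 228 and 276 bp under CuNZ@Gel, a ratio of means of 0.32. This leaves out region 2, a peak of 381 bp in CuNZ@Gel replicate 1 that ended just before region 3. The 4 kb bin that holds both regions had 847 and 719 bp under Gel against 609 and 276 bp under CuNZ@Gel. Its difference was -341 ± 160 bp (CuNZ@Gel minus Gel ± SE, limma, adjusted p = 0.280). The heights of region 3 overlapped, with 4.98 and 6.30 in Gel and 7.54 and 4.48 in CuNZ@Gel. Region 5, from 18891397 to 18891776, had a peak in Gel replicate 1 and in CuNZ@Gel replicate 1, with a fold of 3.23 and 4.05. Regions 1 and 6 were seen in Gel replicate 2 alone, with a fold of 3.22 and 4.16, and region 2 in CuNZ@Gel replicate 1 alone, with a fold of 3.05.

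**Figure D3:**
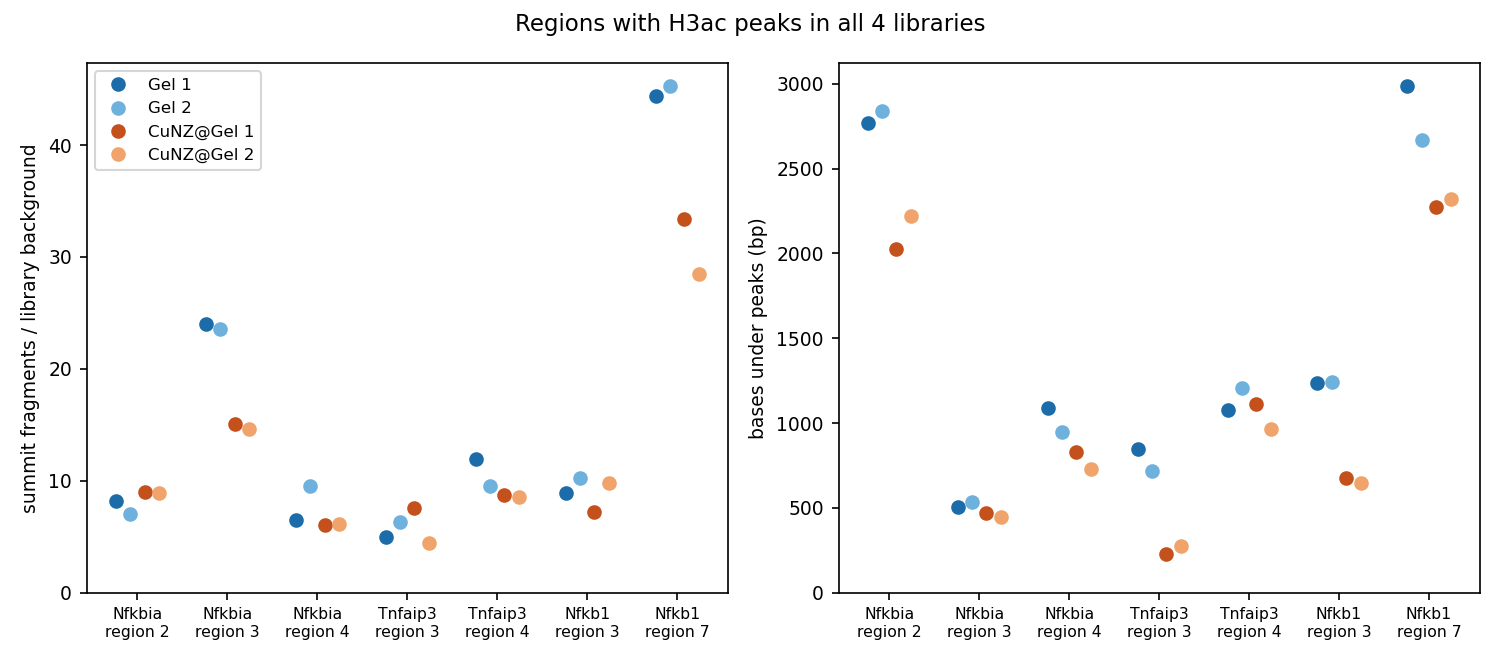
Height (left, summit fragments divided by library background) and covered width (right, bp) of the 7 regions with peaks in all 4 libraries, with 1 point per library. Nfkb1 region 7 and Nfkbia region 3 show the clearest separation in height, and Tnfaip3 region 4 is the only one whose widths overlap between Gel and CuNZ@Gel.

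Among the 7 shared regions, 6 were narrower in each CuNZ@Gel library than in either Gel library, against 74.5% of all 21909 shared regions, and 0 were wider in both, against 1.26%. The exception was Tnfaip3 region 4. The fold was lower in both CuNZ@Gel libraries in 4 of the 7 (63.2% of all shared regions) and higher in both in 0 (4.55%). The height was lower in both in 4 of the 7 (56.6%) and higher in both in 1, Nfkbia region 2 (7.21%). The 4 regions with lower heights were Nfkb1 region 7, Nfkbia regions 3 and 4 and Tnfaip3 region 4. With 7 regions, each count is within 1 region of what its genome share would give.

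Each region with peaks in both Gel libraries was then set beside all other regions of the genome whose mean Gel fold was within 10% of its own. These come from the same lists and carry the same difference of depth. For Nfkb1 region 7 there were 266 such regions, all with peaks in both CuNZ@Gel libraries. The ratio of mean CuNZ@Gel to mean Gel fold was 0.63 at Nfkb1 region 7, against a median of 0.64 and quartiles of 0.59 and 0.70. The strongest Nfkb1 region thus lay in the middle of regions of like strength. The ratio at Tnfaip3 region 4 was 0.74, against a median of 0.75 and quartiles of 0.67 and 0.85 among 2100 regions, also in the middle.

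At Nfkbia the fold ratio lay outside the quartiles of like regions in 2 directions. Region 3 had a fold ratio of 0.57, below the lower quartile of its 1343 like regions (median 0.68, quartiles 0.61 and 0.75), and 13.0% of them had a lower ratio. Region 2 had a ratio of 1.13, above the upper quartile of its 2825 like regions (median 0.82, quartiles 0.73 and 0.92), and 95.9% of them had a lower ratio. The folds of region 2 overlapped between the groups, with 6.95 and 5.26 under Gel and 7.20 and 6.65 under CuNZ@Gel, and were read at summits up to 2256 bp apart. Region 4 had a ratio of 0.69, just below the lower quartile of 0.70 (median 0.79), and 22.7% of its like regions had a lower ratio. The ratios of regions 2 and 3 are the extremes among 7 regions compared in this way and were not tested. Like in width as well as in fold, there were only 7 regions beside Nfkbia region 3, of which 28.6% had a lower ratio, and only 27 beside region 2, of which 92.6% did. The other fold ratios were 0.88 at Nfkb1 region 3 and 0.96 at Tnfaip3 region 3, against medians of 0.78 and 0.89. In height instead of fold, Nfkbia region 4 lay within the quartiles of regions of like fold, at 0.76 against 0.75 and 0.94. Nfkbia region 3 stayed below its lower quartile, at 0.62 against 0.67, and Nfkbia region 2 above its upper one, at 1.18 against 0.98. Nfkb1 region 7 stood at 0.69 in height, against a median of 0.70. That median was lower than the medians of 0.94 for Tnfaip3 region 3 and 0.74 for Nfkbia region 3, which had lower Gel folds.

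For covered width, Tnfaip3 region 3 stood at 0.32 of Gel, where 7.47% of its like regions had a lower ratio and the median was 0.60. This ratio leaves out the adjoining Tnfaip3 region 2, seen in CuNZ@Gel replicate 1 alone. Tnfaip3 region 4 stood at 0.91, where 85.9% of its like regions had a lower ratio. Nfkb1 region 3 stood at 0.53 (22.0% lower) and Nfkb1 region 7 at 0.81 (48.1% lower). Nfkbia regions 2, 3 and 4 stood at 0.76, 0.88 and 0.77, with 69.2%, 76.3% and 68.6% of like regions lower.

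**Figure D4:**
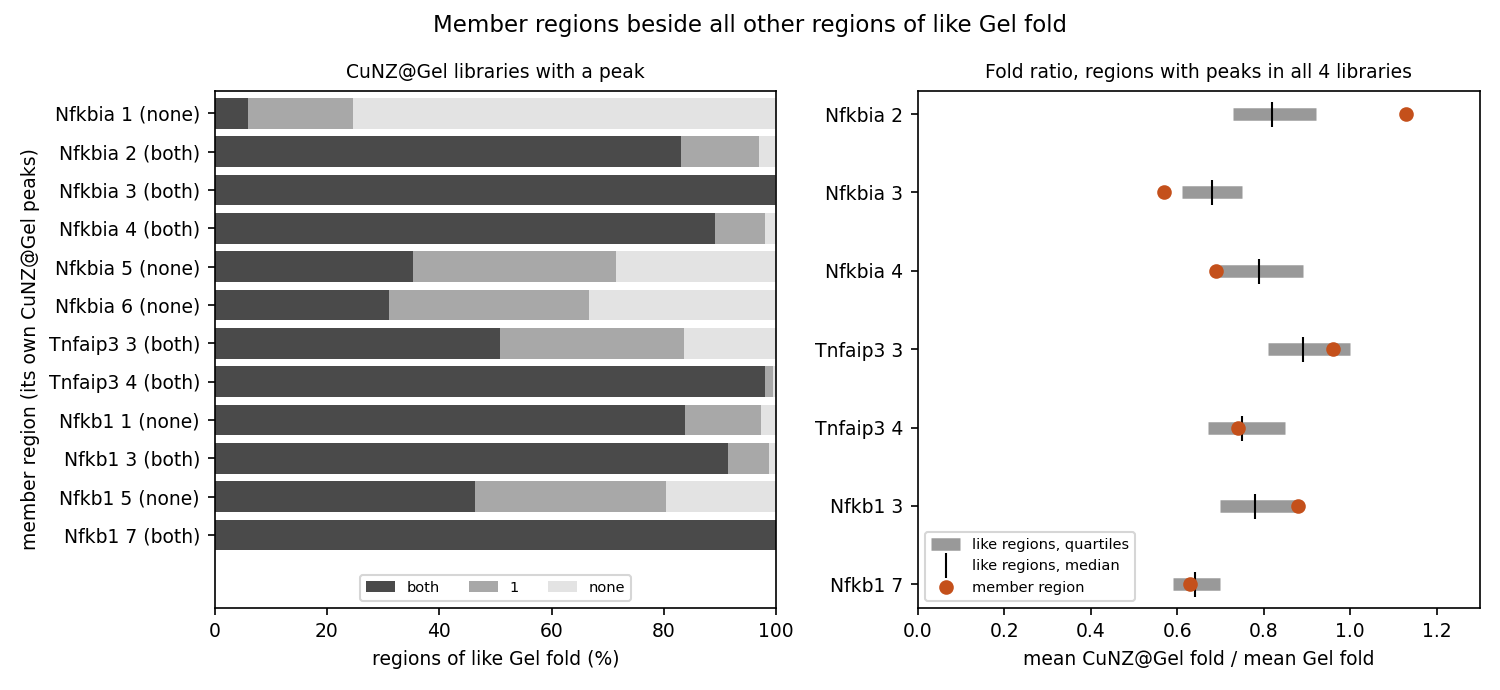
Left, share (%) of regions of like Gel fold with a peak in both, 1 or none of the CuNZ@Gel libraries, for each of the 12 regions that both Gel lists hold, with the state of that region in brackets. Right, ratio of mean CuNZ@Gel to mean Gel fold of the 7 shared regions (points) beside the median and quartiles of like regions; Nfkbia region 2 lies above the quartile range, Nfkbia region 3 below it and Nfkbia region 4 just below its lower end.

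Regions without a CuNZ@Gel peak were compared in the same way. Of 3306 regions of like fold to Nfkb1 region 1, 95 had no CuNZ@Gel peak, or 2.87%, and 83.7% had peaks in both CuNZ@Gel libraries. This region therefore had the state that was rarest among its like regions. It is the most extreme of the 5 regions without a CuNZ@Gel peak and was not tested. At like width as well, 0.965% of 518 regions had no CuNZ@Gel peak. For Nfkb1 region 5 the share without a CuNZ@Gel peak was 19.6% of 5887. It was 28.6% of 6817 for Nfkbia region 5, 33.3% of 7449 for Nfkbia region 6 and 75.3% of 2003 for Nfkbia region 1, the weakest of them.

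Over the 12 regions, the share of like regions without a CuNZ@Gel peak averaged 15.3%, beside 5 of 12 members, or 41.7%. Each list was also scaled to the depth of CuNZ@Gel replicate 2 by a fixed factor, and peaks that still passed were kept. Shallower sequencing would also lose peaks through counting noise, which this setting leaves out. After scaling, 4 of 11 regions had no CuNZ@Gel peak, against 19.9% over the genome. With lists of equal length it was also 4 of 11, against 10.5%. Under both settings the 4 were Nfkb1 regions 1 and 5 and Nfkbia regions 5 and 6, while Nfkbia region 1 no longer had peaks in both Gel libraries. Without Gel replicate 1 the count was 9 of 18, against 46.0% over the genome, since a lone library also counts its unshared peaks. These counts were not tested, and the part of depth in them was not tested further.

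Tested in bins of 4 kb across the genome, no difference of covered width in the windows passed the threshold. The windows overlapped 19 of the 68188 bins tested, and bins were counted whole. The bin from 135404001 to 135408000 reached past the Nfkb1 window, and all of its covered bases lay outside that window. Limma called 0 of the 19 at an adjusted p of 0.05, as it called 0 of all bins (0% lower and 0% higher). All 19 had a lower mean in CuNZ@Gel, against 89.8% of all bins, and the median difference was -200 bp in the windows and -193 bp over all bins (CuNZ@Gel minus Gel). An unadjusted limma p under 0.05 with a lower mean was found in 7 of the 19, against 23.7% of all bins, and with a higher mean in 0 of the 19, against 0.116%. The lowest adjusted p in the windows was 0.0757, shared by the Nfkb1 bin next to the main peak and the bin of Nfkb1 region 1, from 135284001 to 135288000, which also holds part of region 2, with 991 and 908 bp under Gel and 0 bp in both CuNZ@Gel libraries. The Nfkbia bin from 55540001 to 55544000 followed, with 1248 and 1354 bp under Gel against 572 and 627 bp under CuNZ@Gel (limma, adjusted p = 0.0794). The number of calls was not stable. Lower calls in the windows were 10 of 17 without Gel replicate 1, beside 35.8% of all bins, and 7 of 16 without Gel replicate 2, beside 33.7% of all bins, settings in which the remaining Gel library is taken to vary as the CuNZ@Gel pair does, and 0 without either CuNZ@Gel library.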

How the data were processed

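H3ac peaks of 4 libraries of RAW 264.7 cells were used; 4 input libraries were not used here. The submitters' processing notes name GRCm39, MACS2 2.2.8, fastp, deepTools 3.5.6 and SAMtools 1.17. Aligner and calling settings: not given in the sources used here. Each deposited list holds per peak a score, a fold enrichment ratio, a −log10 p and a −log10 q, as the authors' caller wrote them, and peaks were called per library. The fold is the authors' own value per peak. The deposited group lists and peaks on scaffolds were left out.

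Peaks were merged where they overlapped by at least 1 bp. Summit fragments and background were solved from fold and p, which succeeded for 100% of peaks at a relative tolerance of 0.0001 and was tested on simulated data. Covered width was compared per window by exact permutation over 6 assignments, and per 4 kb bin by limma 3.58.1 (trend and robust, R 4.3.3, Benjamini-Hochberg at 0.05), leaving out bins alike in all libraries. Intervals are exact Poisson intervals at 95%. All regions of the 3 windows are described. The members, windows and settings were chosen with earlier results of these data known. Planned lists of pathway and marker genes were not used, as no gene table of GRCm39 was at hand.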

Additional observations from a re-analysis of the deposited data

How the results depend on the processing

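All alternatives were planned. Covered width was lower in CuNZ@Gel in each of the 3 windows under every setting run (stricter threshold, equal list length, equal depth, and without any 1 library). Equal depth removes whole peaks and does not shorten those kept. Peak number had no difference in the Tnfaip3 window without Gel replicate 2 or without CuNZ@Gel replicate 2. Regions without a CuNZ@Gel peak numbered 3 of 10 at the stricter threshold (−log10 q of at least 6.16), where the genome share was 22.8%. Without any 1 library they numbered 5 to 9: 9 of 18 without Gel replicate 1 (genome 46.0%), 7 of 15 without Gel replicate 2 (44.0%), and 5 of 12 without CuNZ@Gel replicate 1 (38.6%) or replicate 2 (30.7%). Of regions like in fold and in width, 28.6% had a lower fold ratio than Nfkbia region 3 and 38.0% a lower one than Nfkb1 region 7.

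Limma calls on bins were unstable. Lower and higher calls over all bins, and lower calls in the windows, were 2383, 3 and 4 with 10 kb bins (4 of 11 in the windows, 5.11% of all bins lower), 4761, 19 and 4 for bins averaging 500 bp or more (4 of 7, 23.3%), and 2017, 7 and 2 at the stricter threshold (2 of 13, 5.58%). Without any 1 library they were 0 to 21376, 0 to 84 and 0 to 10. A replicate block gave 11123, 32 and 5 (5 of 19, 16.3%), although deviations of same-numbered libraries correlated at only 0.00919 and no label ties them as pairs. For these changes the cause was not tested. No other setting made a call.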
